A study of Mus musculus with 4 samples.

Results

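Nlrp14, 5 genes of the Nlrp4 group (Nlrp4a, Nlrp4b, Nlrp4c, Nlrp4e and Nlrp4f) and the 3 genes of the Nlrp9 group (Nlrp9a, Nlrp9b and Nlrp9c) were followed in mouse embryos at the 2-cell stage. These 9 genes were found by matching the Ensembl IDs of the gene table, without their version, to GENCODE M21 symbols, and each matched 1 of the 53715 rows. The embryos were whole embryos of the strain labelled C57BL/DBA2. As zygotes they had been taken from the oviduct, injected with 20 μM of either siNC, the control siRNA (small interfering RNA), or an siRNA to SPENH0335, and cultured in KSOM, an embryo culture medium. All embryos were therefore injected, and no library of uninjected embryos was analysed here. There were 2 libraries of polyA RNA in each group, called control and knockdown. The series examined how gene expression in 2-cell embryos responded to knockdown of SPENH0335, which its title places among RNAs made from enhancers. No row is named for SPENH0335, so the level of the targeted RNA in each library was not analysed here. The sources used here do not state the number of embryos per library or say that replicates were collected separately. P-values accordingly reflect the spread among these 4 libraries alone, and that spread may be technical.

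NLRP proteins carry a nucleotide-binding NACHT domain and a run of leucine-rich repeats, and most also carry an N-terminal pyrin domain. Several family members, with NLRP3 as the best known, sense infection or damage in immune cells and assemble inflammasomes, complexes that activate caspase-1. A separate group is made in the growing oocyte and stored for the early embryo. Its best described member, Nlrp5 (also called Mater), belongs to the subcortical maternal complex, a protein assembly beneath the oocyte membrane, and maternal loss of Nlrp5 stops development at the 2-cell stage. Nlrp14, and the Nlrp4 and Nlrp9 groups, which expanded by duplication in rodents, are known for expression in the germ line and early embryo. Nlrp14 protein has been described as a partner of the DNA methylation factor UHRF1, and Nlrp4f has been tied to the subcortical maternal complex. Nlrp9b is also known outside the oocyte, in the gut epithelium, where it takes part in the response to rotavirus RNA.

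The coordinates of the genes are those of GENCODE M21 on GRCm38 (the same assembly as mm10), and all 9 are annotated as protein coding. Of the members, 8 lie on chromosome 7 and 1, Nlrp4f, on chromosome 13. In order along chromosome 7 they are Nlrp4c (chr7:6045161-6105150, plus strand), Nlrp4b (chr7:10687789-10730168, plus), Nlrp9b (chr7:19991465-20073306, plus), Nlrp4e (chr7:23301192-23362277, plus), Nlrp9c (chr7:26322473-26403700, minus), Nlrp4a (chr7:26435113-26476142, plus), Nlrp9a (chr7:26535023-26575615, plus) and Nlrp14 (chr7:107166990-107198102, plus). Nlrp4f lies at chr13:65177111-65205977 on the minus strand. Nlrp9c, Nlrp4a and Nlrp9a form a run in which 31412 and 58880 bases separate neighbouring spans, so members of both groups alternate there. Nlrp4e ends 23611 bases before Nlrp5.

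Some members share sequence around their annotated start sites. RefSeq promoter windows, running from 250 bases before to 50 bases after an annotated start on GRCm38.p6, matched 8 of the 9 members by symbol. The 6 windows printed here hold the runs of at least 12 bases shared by 3 Nlrp4 members, or the longest run shared by a pair, that of Nlrp9a and Nlrp9c. They are written 5′ to 3′ on the strand of the gene, and capitals mark those runs only. Some pairs share a longer stretch around them, such as the 26 bases that Nlrp4a and Nlrp4f have in common. The window of Nlrp4a (chr7:26435364-26435663, plus strand, at the second of its annotated starts), that of Nlrp4b (chr7:10687543-10687842, plus, at the first of 2 annotated starts), that of Nlrp4c (chr7:6044911-6045210, plus) and that of Nlrp4f (chr13:65205667-65205966, minus) read as follows.
Nlrp4a: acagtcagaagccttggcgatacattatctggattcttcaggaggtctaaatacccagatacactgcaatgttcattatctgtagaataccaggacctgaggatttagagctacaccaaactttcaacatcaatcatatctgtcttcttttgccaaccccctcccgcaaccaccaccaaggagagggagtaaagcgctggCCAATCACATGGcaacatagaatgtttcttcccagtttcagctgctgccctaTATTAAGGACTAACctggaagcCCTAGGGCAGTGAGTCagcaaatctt
Nlrp4b: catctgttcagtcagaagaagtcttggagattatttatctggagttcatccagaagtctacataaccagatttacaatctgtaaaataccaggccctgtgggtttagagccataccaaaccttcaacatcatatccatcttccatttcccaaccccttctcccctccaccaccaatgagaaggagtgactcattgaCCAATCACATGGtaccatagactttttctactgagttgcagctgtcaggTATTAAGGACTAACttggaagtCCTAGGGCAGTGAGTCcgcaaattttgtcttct
Nlrp4c: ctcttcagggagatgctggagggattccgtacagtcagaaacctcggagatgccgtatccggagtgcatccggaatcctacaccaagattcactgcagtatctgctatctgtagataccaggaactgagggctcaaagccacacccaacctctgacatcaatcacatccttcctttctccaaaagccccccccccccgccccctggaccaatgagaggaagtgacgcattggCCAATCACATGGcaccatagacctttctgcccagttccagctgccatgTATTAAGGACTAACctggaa
Nlrp4f: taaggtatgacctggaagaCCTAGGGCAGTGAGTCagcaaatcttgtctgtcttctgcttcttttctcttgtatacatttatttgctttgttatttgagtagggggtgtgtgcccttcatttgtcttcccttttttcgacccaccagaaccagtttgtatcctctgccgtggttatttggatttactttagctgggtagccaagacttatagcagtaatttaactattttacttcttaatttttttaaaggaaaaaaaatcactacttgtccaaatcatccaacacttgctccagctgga
Those of Nlrp9a (chr7:26534773-26535072, plus) and Nlrp9c (chr7:26403651-26403950, minus) follow.
Nlrp9a: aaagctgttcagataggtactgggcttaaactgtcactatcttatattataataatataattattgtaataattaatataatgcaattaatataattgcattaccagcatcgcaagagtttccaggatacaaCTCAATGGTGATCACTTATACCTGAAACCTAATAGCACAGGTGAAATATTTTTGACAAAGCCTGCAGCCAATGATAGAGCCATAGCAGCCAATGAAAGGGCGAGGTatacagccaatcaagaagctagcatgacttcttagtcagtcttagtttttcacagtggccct
Nlrp9c: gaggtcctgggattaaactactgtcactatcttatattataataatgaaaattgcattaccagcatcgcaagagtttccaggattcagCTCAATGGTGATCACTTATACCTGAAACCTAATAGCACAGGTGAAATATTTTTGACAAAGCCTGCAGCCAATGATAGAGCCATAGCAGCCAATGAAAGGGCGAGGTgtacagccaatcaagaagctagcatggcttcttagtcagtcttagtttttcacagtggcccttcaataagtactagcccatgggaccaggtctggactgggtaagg

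The windows of Nlrp4a, Nlrp4b and Nlrp4c hold the 12 bases CCAATCACATGG, which begin 50, 54 and 18 bases before the starts shown. These letters, searched on both strands, were found in 7 of the 32851 windows of the RefSeq table (0.0213%), and the windows belong to 6 genes, these members with Dcxr, Oscp1 and Tmem52b. The same 3 members share the 14 bases TATTAAGGACTAAC, found in 4 windows (0.0122%) and in no other gene's window. The 16 bases CCTAGGGCAGTGAGTC begin at base 25 of the transcript from the start of Nlrp4a shown, at base 18 from the first start of Nlrp4b, 11 bases before its second start, and 231 bases before the RefSeq start of Nlrp4f, which lies inside its GENCODE span. They too were found in 4 windows (0.0122%), all of these 3 genes. The window shown for Nlrp4a lies wholly inside the GENCODE span of that gene. Nlrp9a and Nlrp9c share an unbroken run of 106 identical bases, which ends 13 bases before the start of Nlrp9a and 57 bases before that of Nlrp9c. The short motif CCAAT, which overlaps CCAATCACATGG, occurs on either strand in windows of 6 of the 8 members, Nlrp4a, Nlrp4b, Nlrp4c, Nlrp4e, Nlrp9a and Nlrp9c, and in 37.4% of all windows. It occurs 3 times in each of the windows of Nlrp4c, Nlrp9a and Nlrp9c, and 3.37% of all windows hold it at least 3 times. CANNTG was found in all 8 and in 72.3% of all windows. The motifs were chosen after the sequences had been seen, and a match describes the letters in these windows only.

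The coding sequences divided the members as their names do. Over the 10 pairs within the Nlrp4 group, aligned coding sequences were 76.6% to 93.9% identical, with Nlrp4c and Nlrp4e the closest pair and Nlrp4b in the most distant ones. Within the Nlrp9 group the 3 pairs were 82.3% to 87.4% identical, and Nlrp9a was closest to Nlrp9c. Between the groups, and between Nlrp14 and every other member, identity was 53.7% to 55.7% over 23 pairs. Nlrp4f, the member on the other chromosome, was 83.4% identical to Nlrp4a.

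**Figure D1:**
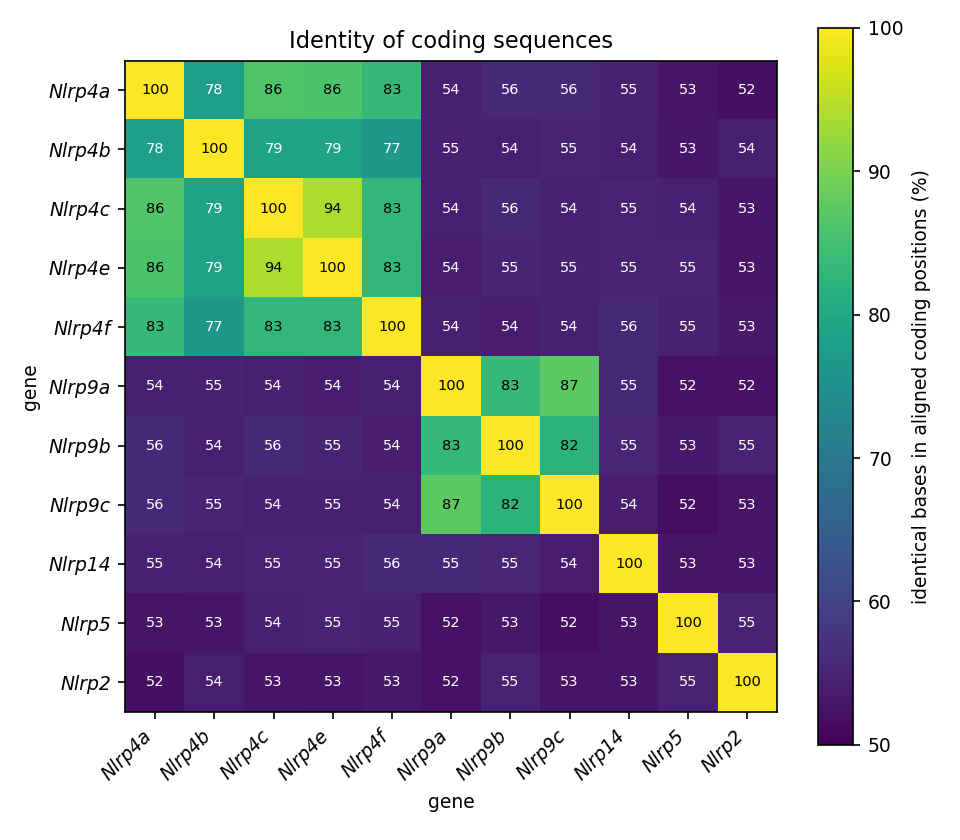
Percent identity of aligned coding sequences between every pair of the 9 members, Nlrp5 and Nlrp2, with each cell giving 1 pair. The Nlrp4 genes form a block of 76.6% to 93.9% and the Nlrp9 genes one of 82.3% to 87.4%, whereas pairs of different groups, with Nlrp14, Nlrp5 and Nlrp2 each counted as its own, stay between 51.9% and 55.7%.

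Copies as close as these can share reads, and the sources used here do not say how reads that fit several genes were counted. For each gene, therefore, the exonic windows of 50 bases that also occur in another annotated gene were counted, as a share of its windows. The share was 0% for Nlrp14 and Nlrp4b, 2.61% for Nlrp9c, 2.63% for Nlrp4a, 5.95% for Nlrp4f, 6.07% for Nlrp9a, 7.79% for Nlrp9b and 10.7% for Nlrp4c. Nlrp4e stood apart at 36.7%, and at 11.5% with windows of 100 bases. Most of what Nlrp4e shares lies in 5 unprocessed pseudogenes on chromosome 7 (Gm16443, Gm8486, Gm8685, Gm8728 and Gm4541), each holding 26.2% to 30.8% of its windows. Their own mean levels were 6.59 to 14.03 CPM (counts scaled to a common library total, with the trimmed mean of M-values, TMM, as the scaling factor), and together 50.3 CPM, 14.5% of the Nlrp4e level. Nlrp4e and Nlrp4c share 276 windows, which is 8.24% of the windows of Nlrp4e and 6.97% of those of Nlrp4c. Because Nlrp4e stood at 348 CPM and Nlrp4c at 41.2 CPM on average, reads assigned to the wrong copy weigh more on Nlrp4c. The values of Nlrp4e, Nlrp4c and the Nlrp9 genes are therefore uncertain, by an amount that the counts do not give. Nlrp4f shared 3.88% of its windows with Nlrp4g, a transcribed pseudogene on chromosome 9. Exons of Nlrp9b overlap those of Gm18877, a processed pseudogene on the same strand, over 136 bases, and Gm18877 had 0 or 1 counts per library.

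All 9 members were expressed in all 4 libraries and passed the filter on low counts. The smallest count of any member was 2799, for Nlrp4c. Together they held 651541 and 547240 counts in control and 611465 and 722062 in knockdown, which is 0.741%, 0.694%, 0.649% and 0.729% of all counts. Totals over all genes were 78865491 to 99011109 counts per library, so counting error is small beside the differences between replicates. Even the 2 most alike libraries, the controls, differed by more than counting error (chi-square over degrees of freedom 24.6), so no pair was treated as 1 library deposited again. On amplified cDNA this does not show that they came from separate embryos.

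Nlrp9c had the most counts, at 1781 and 1750 CPM in control and 1771 and 1938 CPM in knockdown. Nlrp4f followed at 1319 and 1205 CPM in control and 1150 and 1451 CPM in knockdown. For both genes the second knockdown library was the highest of the 4, and the groups overlapped. Nlrp4a stood at 968 and 953 CPM in control and 862 and 1187 CPM in knockdown. The Nlrp9a libraries read 857 and 746 CPM in control against 721 and 896 CPM in knockdown. In Nlrp4a and Nlrp9a the knockdown libraries were the lowest and the highest of the 4, and the control libraries lay between them. Nlrp14 stood at 893 and 749 CPM in control and 593 and 665 CPM in knockdown, so that both knockdown libraries were below both controls. Nlrp9b was at 709 and 607 CPM in control and 538 and 636 CPM in knockdown. Its groups overlapped because the second knockdown library exceeded the lower control. Nlrp4b read 454 and 422 CPM in control and 342 and 466 CPM in knockdown. Nlrp4e read 321 and 340 CPM in control and 327 and 403 CPM in knockdown. Again the second knockdown library was the highest of the 4 for both, and the groups overlapped. Nlrp4c was far below the rest, at 46.1 and 41.5 CPM in control and 29.0 and 48.3 CPM in knockdown, which also overlap. Whether a lower value reflects fewer cells or embryos carrying a transcript or less of it in each cannot be told apart in RNA from whole embryos.

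**Figure D2:**
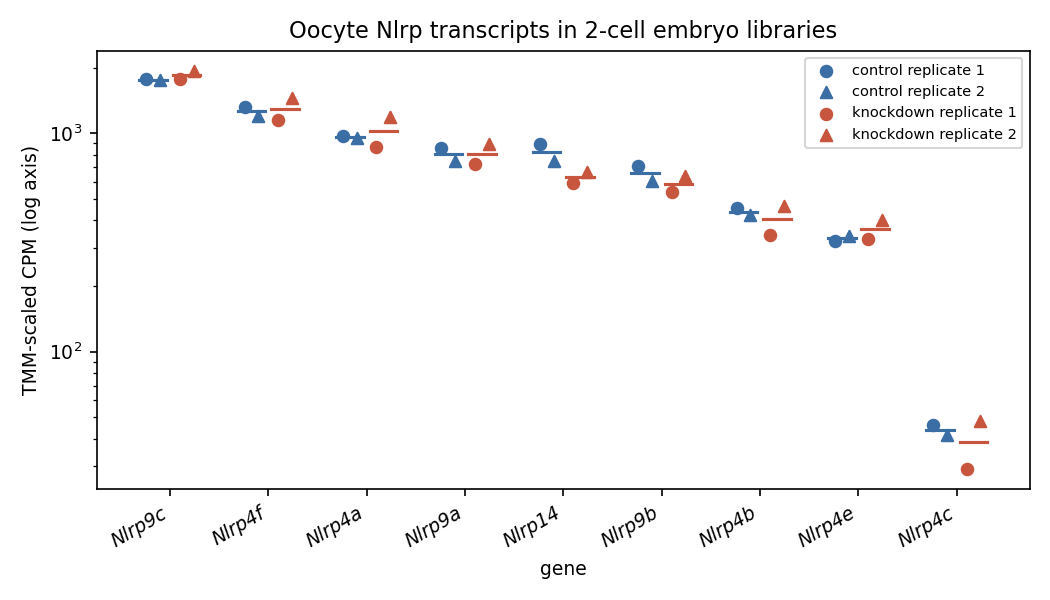
TMM-scaled CPM (log axis) of the 9 members in each library, with control and knockdown replicates as separate points and a line at each group's mean. The groups overlap in 8 genes, and only for Nlrp14 do both knockdown libraries (593 and 665 CPM) lie below both controls (893 and 749 CPM).

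CPM rises with the length of a transcript, so levels of different genes were compared as CPM per kilobase of merged exons, as the mean ± SD of the 4 libraries. Nlrp4f had 331 ± 34.4 CPM per kb and Nlrp9c 305 ± 14.5, and their ranges overlapped. Below them came Nlrp9a (231 ± 24.2), Nlrp4a (205 ± 28.5), Nlrp14 (205 ± 36.4) and Nlrp9b (167 ± 19.0), in which the ranges of neighbours overlapped. Nlrp4e (102 ± 11.1) and Nlrp4b (93.7 ± 12.4) formed a lower pair, also overlapping. Nlrp4c was last, at 10.3 ± 2.15 CPM per kb. The order had 3 breaks where ranges did not overlap, after Nlrp9c, after Nlrp9b and after Nlrp4b. Ranges pool the libraries, and compared within each library some overlapping neighbours kept 1 order. Nlrp9a exceeded Nlrp4a, and Nlrp14 exceeded Nlrp9b, in all 4 libraries. Nlrp4f exceeded Nlrp9c, and Nlrp4e exceeded Nlrp4b, in 3, and Nlrp4a exceeded Nlrp14 in 2. With the longest transcript as the length, Nlrp9a exceeded Nlrp4a in 2.

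The closest pair in coding sequence was thus far apart in level. Nlrp4e exceeded Nlrp4c per kb by 8.21- and 9.65-fold in the control libraries and 13.3- and 9.83-fold in the knockdown libraries, with the windows the copies share as a limit on this ratio. Among the 17050 protein-coding genes tested, ranked by CPM per kb, Nlrp4f ranked 84 and Nlrp9c 95. The members from Nlrp9a to Nlrp4b in this order ranked 141 to 442, and Nlrp4c ranked 3618. From Nlrp4f to Nlrp4c the mean level spanned 32.2-fold. With the longest transcript as the length, Nlrp9c came first, at 563 ± 26.8 against 361 ± 37.5 CPM per kb for Nlrp4f, Nlrp4b passed Nlrp4e, and the span was 49.4-fold. Nlrp9c is the gene this choice moves most, because its merged exons cover 5935 bases and its longest transcript 3216.

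**Figure D3:**
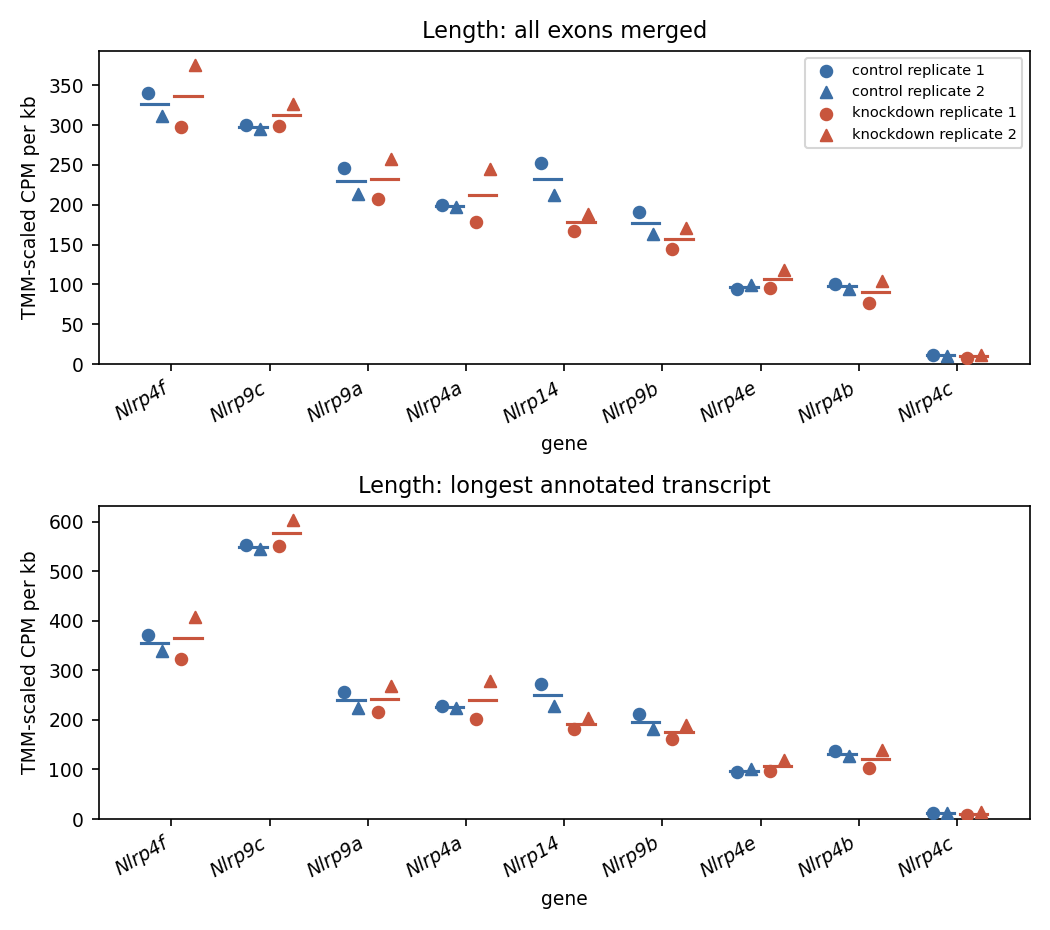
CPM per kilobase of merged exons (upper panel) and of the longest annotated transcript (lower panel) for the 9 members, ordered by their mean over the 4 libraries in the upper panel, with a point per library and a line at each group's mean. In the upper panel neighbouring ranges separate after Nlrp9c, after Nlrp9b and after Nlrp4b, and Nlrp4c lies lowest at a mean of 10.3, whereas in the lower panel Nlrp9c is highest.

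No member changed between control and knockdown by the test across all genes. The edgeR quasi-likelihood test, adjusted by Benjamini-Hochberg, called 0 of the 9 members and 0% of the 25565 genes tested, and its smallest adjusted p over all genes was 0.595. At an unadjusted p under 0.05 it picked 984 genes. By its own adjusted p, DESeq2 called 49 genes, none of them a member. They are 0.133% of the 36863 genes to which DESeq2 gave an unadjusted p, a wider set than the genes edgeR tested. Among the members 1 of 9, Nlrp14, had an unadjusted edgeR p under 0.05, beside 3.85% of all genes tested in either direction, 2.29% lower and 1.56% higher in knockdown.

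Nlrp14 averaged 821 ± 102 CPM in control and 629 ± 50.6 CPM in knockdown (SD, n = 2 each), which is lower by a log2 fold change of -0.38 (SE 0.12, 95% interval -0.69 to -0.08). By edgeR its p was 0.0214 and its adjusted p 0.9999, so the difference did not pass the threshold. As a fold the interval runs from 0.622 to 0.945 of control. Nlrp14 was the 1 member whose groups did not overlap, and the groups did not overlap in 32.7% of all genes, with knockdown lower in 17.1% and higher in 15.6%. Among genes at 100 CPM or more the groups did not overlap in 35.8%, with knockdown lower in 8.86% and higher in 27%. Of the 2111 genes averaging 100 CPM or more, 3.13% had an unadjusted edgeR p under 0.05 in either direction, 0.995% lower and 2.13% higher in knockdown. With 1 library left out in turn, the log2 fold change of Nlrp14 ranged from -0.51 to -0.26. Its unadjusted p was 0.182 without control replicate 1. Nlrp14 shares no window of 50 bases with another gene, so its count does not rest on reads shared with copies at that length.

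Markers of the oocyte and of the 2-cell stage were read beside Nlrp14. Of 10 oocyte and early embryo markers, all with counts, 8 had a log2 fold change below 0, and 2, Dppa3 and Zp2, above it. Below 0 were also 50.3% of all genes tested and 32.5% of those at 100 CPM or more. Gdf9 and Btg4 had an unadjusted p under 0.05 by edgeR. The 10 genes summed to 8590 and 8647 CPM in control and 7806 and 7997 CPM in knockdown. Gdf9, an oocyte growth factor, stood at 387 and 369 CPM in control and 273 and 299 CPM in knockdown (log2 fold change -0.40, SE 0.10, unadjusted edgeR p 0.00891, adjusted p 0.9999). Btg4, which recruits the machinery that removes maternal mRNA, stood at 2635 and 2622 CPM in control and 2278 and 2315 CPM in knockdown (log2 fold change -0.19, SE 0.07, unadjusted edgeR p 0.0293, adjusted p 0.9999). The 8 markers of transcription at the 2-cell stage, all with counts, summed to 799 and 860 CPM in control and 959 and 921 CPM in knockdown. In this list 6 genes had a log2 fold change above 0 and 2 below it, to be read beside the same 50.3% and 32.5% below 0. Zscan4d and Zscan4c had unadjusted p-values of 0.0144 and 0.0229 by edgeR. No gene of either list passed the adjusted threshold. Their part in the Nlrp14 difference was not tested.

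In the other 8 members the groups overlapped. Their means ± SD in control and knockdown (n = 2 each) were 1765 ± 22.3 and 1855 ± 118 CPM for Nlrp9c, 1262 ± 80.7 and 1300 ± 213 CPM for Nlrp4f, and 961 ± 10.4 and 1025 ± 230 CPM for Nlrp4a. The log2 fold changes of these 3 genes were 0.07 (SE 0.08), 0.04 (SE 0.13) and 0.09 (SE 0.16). Nlrp4e, the other member with a higher mean in knockdown, had 330 ± 13.2 and 365 ± 53.6 CPM and a log2 fold change of 0.14 (SE 0.13). Nlrp9a was level, at 801 ± 78.4 and 808 ± 123 CPM and 0.01 (SE 0.14). The means of Nlrp9b (658 ± 71.8 and 587 ± 69.0 CPM), Nlrp4b (438 ± 22.9 and 404 ± 87.6 CPM) and Nlrp4c (43.8 ± 3.22 and 38.6 ± 13.7 CPM) were lower in knockdown, with log2 fold changes of -0.17 (SE 0.13), -0.12 (SE 0.16) and -0.18 (SE 0.27). Unadjusted p-values of these 8 genes were 0.246 to 0.926 by edgeR.

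What the test leaves possible differs by gene. The 95% interval of the log2 fold change was narrowest for Nlrp9c, from -0.13 to 0.27, and widest for Nlrp4c, from -0.85 to 0.49. The intervals of the other members with overlapping groups lay between -0.52 and 0.49. All 9 intervals stayed within 2-fold of no change, as did those of 31.8% of all genes tested and 99.6% of those at 100 CPM or more. A log2 fold change below 0 was seen in 4 of the 9 members, against 50.3% of all genes and 32.5% of those at 100 CPM or more. The median over the members was 0.01, beside -0.0025 over all genes tested and 0.06 over the genes at 100 CPM or more.

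**Figure D4:**
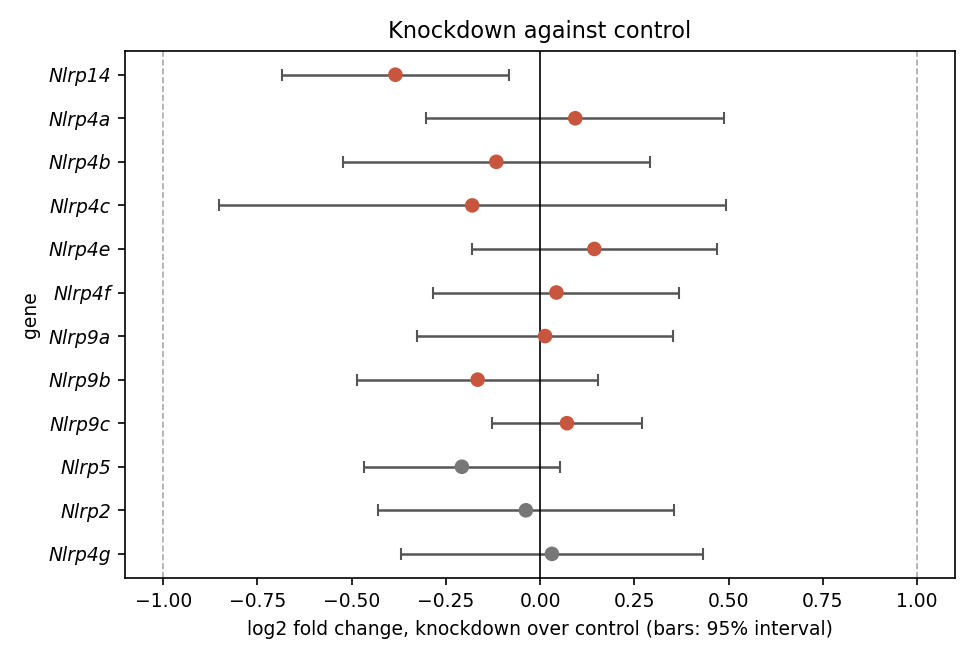
Log2 fold change of knockdown over control for each member (red) and for Nlrp5, Nlrp2 and the pseudogene Nlrp4g (grey), with its 95% interval from edgeR's quasi-likelihood fit and lines at 0 and at 2-fold in each direction. The interval of Nlrp14 (-0.69 to -0.08) leaves out 0, those of the other 8 members include it, and none reaches 2-fold.

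Added up, the 9 genes gave 7347 and 6813 CPM in control and 6334 and 7689 CPM in knockdown. The sums averaged 7080 ± 378 in control and 7012 ± 958 CPM in knockdown, and the groups overlapped. Within the sum the shares of 5 of the 9 members did not overlap between groups. The share of Nlrp14 was 12.1% and 10.99% in control and 9.36% and 8.65% in knockdown, that of Nlrp9b 9.65% and 8.92% against 8.49% and 8.27%, and that of Nlrp4b 6.18% and 6.19% against 5.40% and 6.06%. Higher in knockdown were the shares of Nlrp4e, at 4.37% and 4.99% against 5.16% and 5.24%, and of Nlrp4f, at 17.95% and 17.69% against 18.16% and 18.87%. The shares of Nlrp4a, Nlrp4c, Nlrp9a and Nlrp9c overlapped, with Nlrp9c as the largest, at 24.2% and 25.7% against 28.0% and 25.2%. In CPM, the groups did not overlap in 32.7% of all genes tested and 35.8% of those at 100 CPM or more. No such figure was made for shares, which depend on each other because they add to the same total. No test was made of a sum or share over chosen genes.

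Except for Nlrp14, the members differed more between the knockdown replicates than between the group means. All 9 were higher in knockdown replicate 2 than in replicate 1, by 1.09-fold for Nlrp9c, 1.12-fold for Nlrp14, 1.18-fold for Nlrp9b, 1.23-fold for Nlrp4e, 1.24-fold for Nlrp9a, 1.26-fold for Nlrp4f, 1.36-fold for Nlrp4b, 1.38-fold for Nlrp4a and 1.67-fold for Nlrp4c. Of all genes tested 48.2% were higher in that library, and of those at 100 CPM or more 75.7%. Of the members 8 belong to these abundant genes, all but Nlrp4c. The median log2 ratio of the members was 0.31, beside 0.15 over the abundant genes and -0.02 over all. Between the controls, 8 of 9 members were higher in replicate 1, by 1.02- to 1.19-fold, and Nlrp4e stood at 0.945 of replicate 2. The same direction held for 49.3% of all genes and 55.4% of the abundant ones. The knockdown replicates lay further apart than the control replicates for 8 of the members, as for 61.3% of all genes and 77% of the abundant ones, with Nlrp14 as the exception.

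Which knockdown library was kept decided the direction of several members. Without knockdown replicate 1, 5 of 9 members had an unadjusted p under 0.05 by edgeR, with Nlrp4a, Nlrp4e, Nlrp4f and Nlrp9c higher, beside 5.66% of the genes tested, and Nlrp14 lower, beside 7.44%. Without knockdown replicate 2, 5 of 9 did, and all of them (Nlrp4a, Nlrp4b, Nlrp4c, Nlrp9b and Nlrp14) were lower, beside 4.77% of genes. Nlrp4a passed from a log2 fold change of 0.31 to one of -0.15 between these fits. Nlrp14 was lower in both, which follows from its groups not overlapping and adds nothing to that. No member had an adjusted p under 0.154 in any alternative. In these fits a group of 1 library is taken to vary like the other group. The percentages beside the members' counts cover all genes tested in each fit. None was made for genes at 100 CPM or more, to which all members but Nlrp4c belong. Of those abundant genes 75.7% were higher in knockdown replicate 2 than in replicate 1. Whether the members differed from other abundant genes in these fits was therefore not tested.

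**Figure D5:**
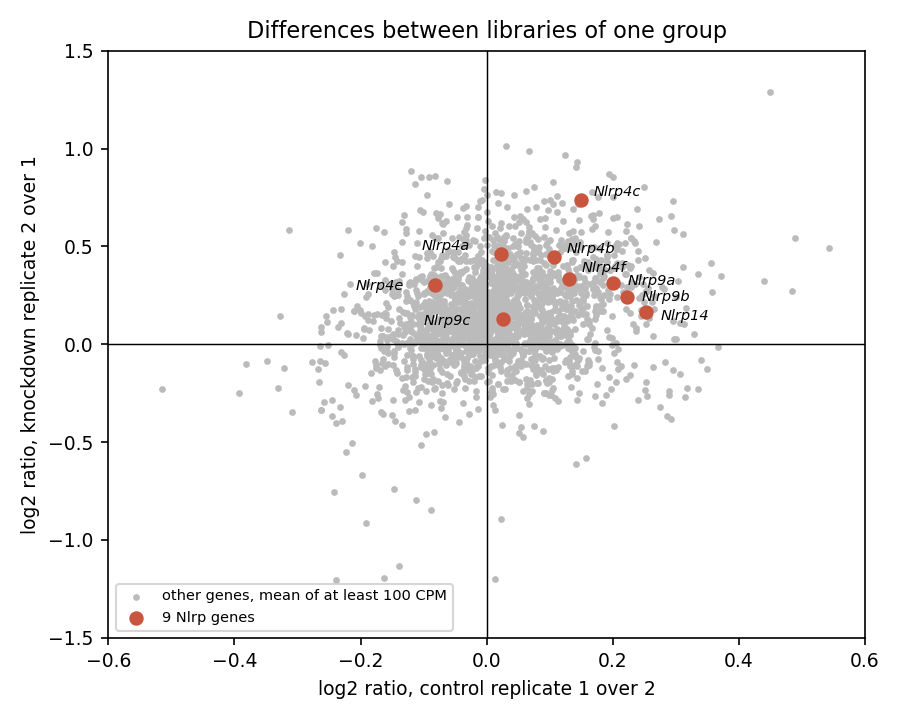
For each member, the log2 ratio of control replicate 1 over control replicate 2 (horizontal axis) and of knockdown replicate 2 over knockdown replicate 1 (vertical axis), with the other genes at 100 CPM or more in grey, 3 of them beyond the axes. All 9 members lie above 0 on the vertical axis and 8 lie right of 0 on the horizontal one, with Nlrp4e to its left.

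Other NLRP genes of the oocyte were measured beside the members. Nlrp5 had 427 and 401 CPM in control and 339 and 378 CPM in knockdown, without overlap, and a log2 fold change of -0.21 (SE 0.10, unadjusted edgeR p 0.0965, adjusted p 0.9999). Nlrp2, also placed in the subcortical maternal complex, had 44.4 and 47.5 CPM in control and 41.7 and 47.8 CPM in knockdown, which overlap (log2 fold change -0.04, SE 0.16). The pseudogene Nlrp4g had 316 and 299 CPM in control and 267 and 360 CPM in knockdown, 0.242 of the Nlrp4f level on average, with a log2 fold change of 0.03. Nlrp4d had 0 counts in all 4 libraries, which allows up to 3 counts in each. Of the 10 other NLRP genes listed, 6 were tested, 0 were called, 4 had a log2 fold change above 0 and 2 below, and their median was 0.06.

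The NLRP sensors and core inflammasome genes of immune cells had few counts. Nlrp3 had 17 and 25 counts in control and 35 and 31 in knockdown, against 2799 counts or more for each member. Nlrp6, an intestinal family member, had 2.19 and 1.74 CPM in control and 3.75 and 1.51 CPM in knockdown. Among the partners that turn an NLRP protein into an inflammasome, the adaptor Pycard had 85 and 168 counts in control and 199 and 99 in knockdown, and the protease Casp1 had 37 and 56 against 68 and 61. Il1b, which encodes the cytokine that Casp1 cuts, had 0 counts in every library, as did Nlrp1a and Nlrp1b, which allows up to 3 counts in each. Aim2, a sensor of cytosolic DNA, had 32 and 35 counts in control and 0 and 11 in knockdown, without overlap. Panx1, a membrane channel, had 6.28 and 8.20 CPM in control and 5.06 and 6.78 CPM in knockdown. The list also holds genes with wider roles that were well measured. Nek7, a kinase that binds NLRP3, had 8561 and 7631 counts in control and 8543 and 9891 in knockdown. Txnip had 56.1 and 45.8 CPM in control and 42.1 and 53.2 CPM in knockdown, and the helicase Dhx9 42.7 and 42.4 against 51.8 and 31.6 CPM. The CPM values of these 3 genes, chosen after they were seen, overlapped between groups. Of the 14 inflammasome partners 11 were tested and 0 called, with 6 above and 5 below a log2 fold change of 0.

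NLR genes outside the NLRP branch included scarce and well measured transcripts. The 12 listed genes, 11 of them tested and 0 called, summed to 105 and 90.7 CPM in control and 78.6 and 96.1 CPM in knockdown, with 8 of 11 below a log2 fold change of 0 and a median of -0.35. The 2 with the smallest p were Ciita, a regulator of class II antigen presentation genes, with 158 and 30 counts in control and 28 and 40 in knockdown, and Naip1, a sensor of bacterial secretion systems. Naip1 had 52.0 and 46.5 CPM in control and 31.1 and 46.3 CPM in knockdown (log2 fold change -0.35, SE 0.23), on average 7.94 CPM per kb beside 10.3 for Nlrp4c. Nlrc4, an inflammasome protein that works with Naip sensors and is named after its values were seen, had 2974 and 2427 counts in control and 2990 and 3415 in knockdown. Of 10 macrophage and blood markers 9 had counts, all but Hbb-bs. Of the 9 tested, 8 had a log2 fold change below 0, beside 50.3% of all genes tested, with Csf1r above it. They summed to 34.4 to 60.7 CPM in control and 15.9 to 33.4 CPM in knockdown, and 0 had an unadjusted p under 0.05. Much of that sum was the globin gene Hba-a1, named after its values were seen. Hba-a1 had 26.2 and 27.1 CPM in control and 24.9 and 10.4 CPM in knockdown, so the sum says little about the leukocyte markers. Lyz2, a lysozyme of myeloid cells, had 371 and 1559 counts in control and 404 and 135 in knockdown, and the leukocyte marker Ptprc had 17 and 112 against 0 and 7. Both were highest in control replicate 2, whereas Ciita was highest in control replicate 1. The part of macrophage or blood RNA in the NLR and Aim2 values was not tested.

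The 7 genes listed for the subcortical maternal complex, 2 of them the NLRP genes above, were all tested and 0 were called. All 7 had a log2 fold change below 0, beside 50.3% of all genes tested and 32.5% of those at 100 CPM or more. The median of the 7 was -0.20, where the members' median was 0.01. Of the 7 genes, 0 had an unadjusted edgeR p under 0.05. Their sums, 5431 and 5476 CPM in control and 4642 and 5595 CPM in knockdown, overlapped. Most of each sum was Zbed3, named after its values were seen, with 4604 and 4717 CPM in control and 4001 and 4867 CPM in knockdown. The overlap of the sums therefore says little about the other genes of the list. Tle6, a subunit that binds Nlrp5, had 54.8 and 44.7 CPM in control and 36.3 and 40.9 CPM in knockdown (log2 fold change -0.37, SE 0.18, unadjusted edgeR p 0.0886, adjusted p 0.9999).

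Genes reported with NLRP14 or maternal DNA methylation, 6 in all, were tested with 0 called, 2 above and 4 below 0, and a median of -0.05. Uhrf1, which brings the maintenance methyltransferase to newly replicated DNA, had 257 and 248 CPM in control and 235 and 326 CPM in knockdown (log2 fold change 0.15, SE 0.17), and unlike Nlrp14 its groups overlapped. Zfp57, which protects imprints, had 1128 and 1096 CPM in control and 839 and 1109 CPM in knockdown (log2 fold change -0.19, SE 0.14). The 7 transcription factors of the oocyte were also all tested, with 0 called, 3 above and 4 below 0 and a median of -0.08. Sohlh1, a factor of early oocyte growth, had 112 and 120 counts in control and 67 and 61 in knockdown. Tbpl2, the TBP relative used by oocytes, had 42.1 and 40.2 CPM in control and 35.6 and 37.1 CPM in knockdown. Both were lower in knockdown without overlap, and neither passed the test.

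Many genes around the members had few or no counts, as did many rows of the whole table. Within 200 kb of a member's span GENCODE M21 lists 148 other genes, 147 of them in the table. Of these, 50 had 0 counts in all libraries, 53 were tested and 32 had a mean of at least 1 CPM. Of all 53715 rows of the table, 36863 had a count in at least 1 library and 25565 were tested. Vomeronasal receptors of the Vmn1r family made up 24 of the neighbours, 14 of them without counts, and olfactory receptors 11, with 7 without counts. The 2 neighbours at 100 CPM or more, named after their values had been seen, were Nlrp5 and Ceacam20, which lies 361 bases from Nlrp9b and had 150 and 141 CPM in control and 151 and 158 CPM in knockdown. None of the 53 was called by edgeR's adjusted p, 28 had a log2 fold change above 0 and 25 below, and their median was 0.07. The smallest unadjusted p was that of Cyp2a4, a steroid hydroxylase gene, with 309 and 301 counts in control and 186 and 87 in knockdown (log2 fold change -1.34, SE 0.51, unadjusted edgeR p 0.0422, adjusted p 0.9999). Next came Gm44733, with 14 and 15 counts in control and 43 and 105 in knockdown (log2 fold change 2.17, SE 0.97, unadjusted edgeR p 0.0710, adjusted p 0.9999).

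Genes whose pattern over the 4 libraries was nearest to that of Nlrp9c, the member with the highest mean CPM, were sought among the 2103 other genes at 100 CPM or more. Likeness was the Euclidean distance between log2 CPM values centred on each gene's mean. Tcea1, a transcription elongation factor, was nearest at 0.0049, followed by Cnot7, a subunit of the CCR4-NOT deadenylase, at 0.015 and Arhgap20os at 0.021. Tcea1 had 501 and 493 CPM in control and 498 and 547 CPM in knockdown. With 4 libraries such likeness is common, since 295 genes lay within 0.1 and the median distance was 0.187.

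Markers of the cells that surround or meet the oocyte were low beside the oocyte markers. Of 10 cumulus and granulosa genes 9 had counts, and they summed to 52.1 to 57.2 CPM in control and 46.8 to 65.0 CPM in knockdown. Most of that sum was Cyp19a1, the aromatase gene, named after its values were seen, with 47.4 and 38.6 CPM in control and 36.8 and 55.7 CPM in knockdown. Has2, which makes the hyaluronan of the cumulus, had 235 and 207 counts in control and 90 and 43 in knockdown (log2 fold change -1.91, SE 0.57, unadjusted edgeR p 0.0173, adjusted p 0.9999). Foxl2, a granulosa transcription factor, had 79 and 88 counts in control and 22 and 2 in knockdown (log2 fold change -2.98, SE 1.26, unadjusted edgeR p 0.0594, adjusted p 0.9999). Neither passed the adjusted test, and in both the knockdown libraries were below both controls. Of the 8 cumulus and granulosa genes tested, however, 5 had a log2 fold change above 0 and 3 below, with a median of 0.07. The part of such cells in the Nlrp14 difference was not tested. Of 10 sperm and testis genes 9 had counts, at 15.6 to 18.2 CPM in control and 11.8 to 20.0 CPM in knockdown. Pgk2, a glycolytic enzyme gene of sperm, had 147 and 232 counts in control and 788 and 298 in knockdown, and Ldhc, another, had 671 and 452 against 521 and 252.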

How the data were processed

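Each of the 4 libraries, made from pre-amplified cDNA per the labels' protocols, has 1 column of deposited counts per gene. The values are whole numbers with unequal totals, so they were taken as not normalized by the authors. Tools named in the submitters' processing notes, without their roles, are HISAT2 2.1.0, Trim Galore 0.6.5, Picard 2.18.2 and CASAVA 1.8, with the build mm10. The strand setting, counter, annotation, and handling of duplicates and shared reads were not given in the sources used here.

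Rows were matched to GENCODE M21 by Ensembl ID (53620 of 53715). The test was edgeR's quasi-likelihood test (version 4.0.16, R 4.3.3), two-sided, of group alone, after filterByExpr with a minimum of 10 counts and TMM scaling. P-values were adjusted by Benjamini-Hochberg over 25565 genes, with a threshold of 0.05. SEs are the log2 fold change over the square root of F. The procedure was also run on simulated counts, with independent replicates and changes larger than those of the members. That run therefore does not bear on differences as small as theirs. Alternatives used limma 3.58.1 (voom) and DESeq2 1.42.0, other scalings and filters, and libraries left out. Coding sequences were aligned with Biopython 1.88. Limits from 0 counts use 3 counts and cover counting error only.

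Besides the members, genes were named by rule: the 2 smallest p-values of each list and of the neighbours within 200 kb, with Nlrp2, Nlrp3, Nlrp5, Pycard, Casp1 and Il1b always included. The members and lists were chosen with earlier results of these data known.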

Additional observations from a re-analysis of the deposited data

How the results depend on the processing

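Over 13 alternatives, 106 of 117 log2 fold changes of the members kept their direction and 11 reversed, and Nlrp14, Nlrp9b and Nlrp9c did not reverse in any of them. For Nlrp14, whose groups did not overlap, leaving out 1 library could hardly reverse the direction. With scaling by total counts alone, Nlrp4f went to -0.0024 and Nlrp9a to -0.032, and with only genes at a mean of at least 10 CPM Nlrp9a went to -0.013. The other 8 reversals came from leaving out 1 library, where values ranged from -0.15 to 0.31 for Nlrp4a, -0.35 to 0.091 for Nlrp4b, -0.59 to 0.14 for Nlrp4c, -0.0085 to 0.29 for Nlrp4e, -0.13 to 0.20 for Nlrp4f and -0.15 to 0.16 for Nlrp9a. The unadjusted p of Nlrp14 was 0.00667 to 0.0487 in the alternatives that keep all libraries and 0.00589 to 0.182 with 1 left out, and its adjusted p was at least 0.317. Over all genes DESeq2 called 49, and leaving out 1 library gave 0 to 3. The cause of these differences was not tested. The span of levels per kb moved from 32.2-fold to 49.4-fold with the longest transcript as the length.

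With the replicate number as a block, edgeR called 0 genes, 479 had an unadjusted p under 0.05, and Nlrp14 had a log2 fold change of -0.38 (p 0.0354). Same-numbered libraries did not deviate together (correlation -0.0194 over all genes, -0.196 at 100 CPM or more), so the numbers were not taken as pairs. A block with the numbers crossed, added after the data had been seen, called 0 genes, with 747 at an unadjusted p under 0.05. Depth is not the limit for the members, of which the lowest count was 2799, whereas with 2 libraries a group the spread between replicates sets the width of the intervals.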
